A study of Mus musculus with 30 samples.

Results

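The expression of 10 apolipoprotein genes, of 7839 named genes measured, was followed in the livers of 30 mice: Apoa1, Apoa2, Apom, Apob, Apoe, Apoc1, Apoc2, Apoc3, Apoa5 and Apoa4. Their 12 probes were taken from an Illumina mouse array by gene symbol in the platform annotation, and Apoa2 and Apoc1 had 2 probes each. Probes entered the comparison if 7 or more of the 30 arrays gave a detection p-value below 0.05, a filter that 10525 of 24613 probes passed. All 12 apolipoprotein probes were detected on 30 of 30 arrays, so none passed through only 1 group.

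All animals were C57BL/6J mice given a high-fat diet over 11 weeks and then kept without food for 10 h before liver was taken. A group of 16 had been raised conventionally, with a gut microbiota, and a group of 14 had been raised germfree. Sex, age, cage and chip were not given in the sources used here. Each array held the cRNA of 1 liver, and the study named cholesterol metabolism as a point of interest.

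Apolipoproteins are the protein part of the particles that carry lipid in plasma. The liver secretes triglyceride in VLDL, which is built around apolipoprotein B, and releases apolipoproteins A-I and A-II, on which HDL forms. The small C proteins and apolipoproteins A-V and E exchange between particles and set how fast lipoprotein lipase and hepatic receptors remove them. Apolipoprotein M is a lipocalin that sits on HDL and carries sphingosine 1-phosphate, a signalling lipid. In the mouse genome (GRCm38.p6) Apoa1, Apoc3, Apoa4 and Apoa5 are adjacent coding genes on chromosome 9, and Apoc1 and Apoe are neighbours on chromosome 7. Apom lies on chromosome 17, Apoa2 on chromosome 1 and Apob on chromosome 12.

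Mean raw signal ran from 85.5 to 359 intensity units between arrays, and 33.7% to 41.7% of probes were detected. Normalized arrays correlated at 0.961 to 0.990 and no pair was identical. Hepatocyte markers Ttr, Hpx, Trf, Serpina1a and Ahsg were detected in every liver. The array's probe for Alb was detected in only 2 conventional and 2 germfree livers, and its probe for Fgb in no liver. An undetected probe therefore does not show that its gene was not expressed. The number of arrays limits the precision.

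Apom was higher in germfree liver, and it was the single apolipoprotein probe of the 12 that passed the test. Its normalized log2 intensity ran from 11.85 over a median of 12.36 to 12.66 in the 16 conventional livers. In the 14 germfree livers it ran from 12.44 over a median of 12.83 to 13.28. Each of the 14 germfree livers exceeded the mean of the conventional ones and 10 lay above the highest conventional liver, while 9 conventional livers lay below the lowest germfree one, so the groups overlapped in part. The means were 12.36 ± 0.22 (SD, n = 16) and 12.85 ± 0.23 (SD, n = 14).

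Apom rose by 0.48 ± 0.08 on the log2 scale (SE), which is 1.40-fold (95% interval 1.24 to 1.57; limma, adjusted p = 0.000216). Of the 12 apolipoprotein probes 1 passed, against 5.73% of all 10525 probes: 3.28% (345) were higher in germfree liver, Apom among them, and 2.45% were lower, with no apolipoprotein among them. Before normalization the Apom signal was 5263 ± 1561 units in the 16 conventional livers and 7550.4 ± 2699 units (SD) in the 14 germfree ones. Leaving out any 1 liver kept the log2 change between 0.45 and 0.51. After scaling each array to the median of all its probes, in place of quantile normalization, the change was 0.50 ± 0.16 (SE). It did not pass there (limma, adjusted p = 0.183). With the median taken over probes detected on all arrays, it was 0.48 ± 0.09 (SE) and passed (limma, adjusted p = 0.00113). Of the 287 named genes that rose, 86 had a larger log2 change than Apom.

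**Figure D1:**
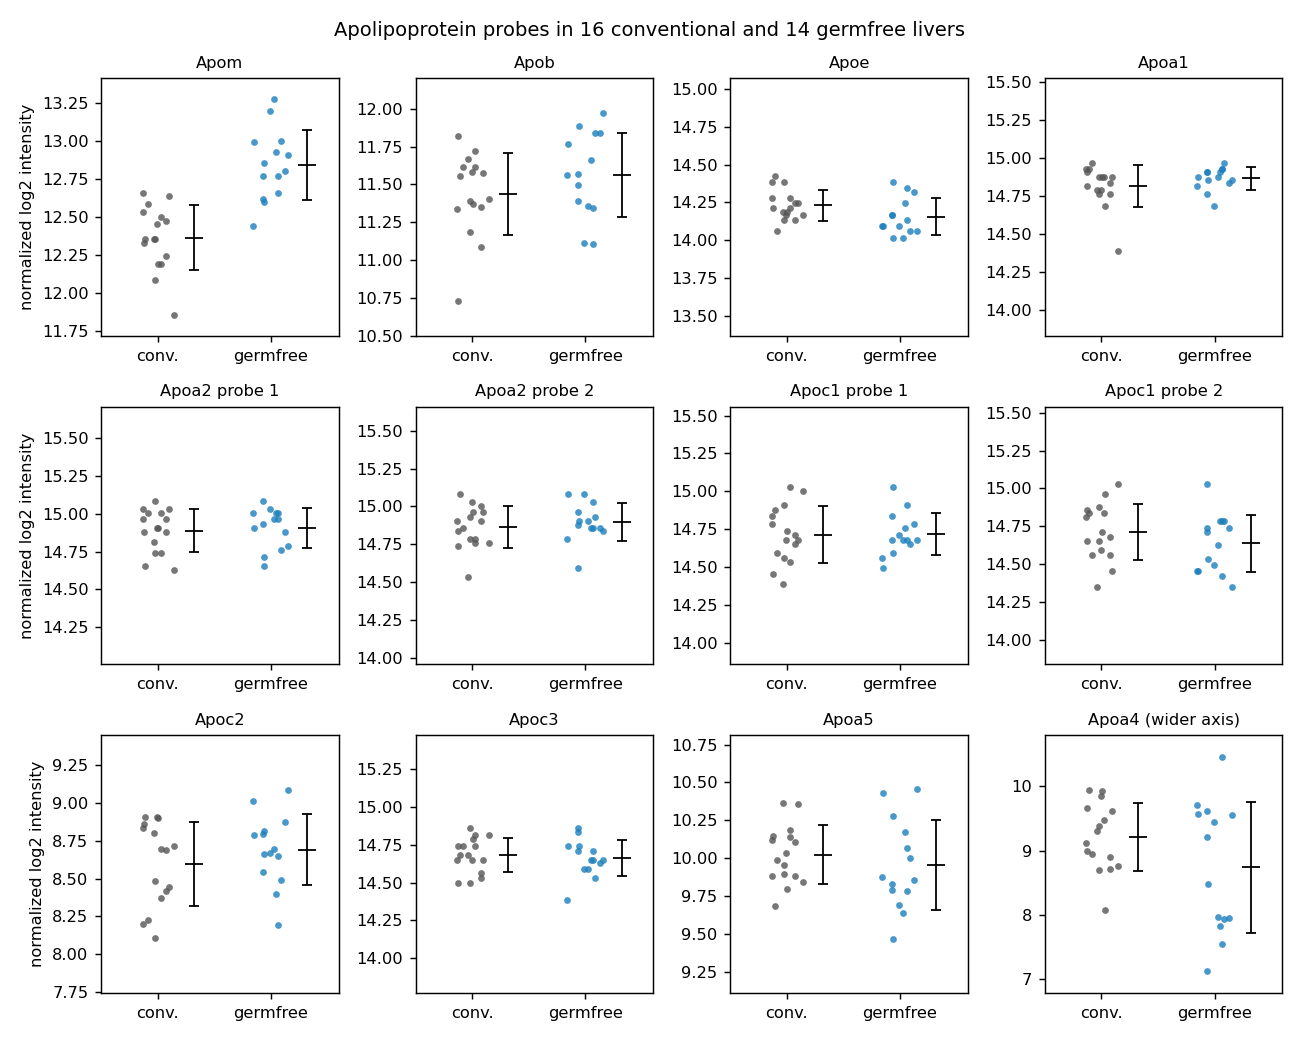
Normalized log2 intensity of the 12 apolipoprotein probes, each point 1 liver, with 16 conventional (grey) and 14 germfree (blue) livers; the bar beside each group is its mean and SD. The vertical scale is the same in every panel except Apoa4, whose scale is wider. The germfree livers sit high for Apom, with 10 of 14 above all conventional livers, and Apoa4 has the widest scatter.

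The promoter of Apom is printed because it belongs to the member that passed the test, that of Apoa4 because this gene varied most between livers, and that of Apoc2 because it held matches to 2 of the motifs searched. Each runs from 250 bases before to 50 bases after a start site, 5′ to 3′ on the gene's strand (RefSeq, GRCm38.p6), and 8 of the 10 genes had such an entry. Capitals mark matches on either strand to GTTAAT (a core of HNF1 sites), AGGTCA (the recognition letters of many nuclear receptors), CAAAGTCCA (a core bound by HNF4) or TATAAA. The nuclear receptor motif was added to the search after the promoters had been read. No match overlapped another in the windows shown, and a sequence without capitals held no exact match. Sites that differ from these letters were not searched for.
Apom, chr17:35131752-35132051, minus strand: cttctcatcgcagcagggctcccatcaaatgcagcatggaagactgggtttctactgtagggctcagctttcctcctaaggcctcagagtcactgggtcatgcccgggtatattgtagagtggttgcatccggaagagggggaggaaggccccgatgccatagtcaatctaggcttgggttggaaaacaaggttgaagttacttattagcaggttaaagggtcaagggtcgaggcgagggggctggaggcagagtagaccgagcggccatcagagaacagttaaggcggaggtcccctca
Apoa4, chr9:46240594-46240893, plus strand: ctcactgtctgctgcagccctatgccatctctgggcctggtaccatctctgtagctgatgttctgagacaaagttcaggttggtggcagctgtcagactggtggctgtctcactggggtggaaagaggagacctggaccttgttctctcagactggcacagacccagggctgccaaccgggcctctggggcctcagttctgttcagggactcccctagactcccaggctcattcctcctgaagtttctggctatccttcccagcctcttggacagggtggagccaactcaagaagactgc
Apoc2, chr7:19677892-19678191, minus strand: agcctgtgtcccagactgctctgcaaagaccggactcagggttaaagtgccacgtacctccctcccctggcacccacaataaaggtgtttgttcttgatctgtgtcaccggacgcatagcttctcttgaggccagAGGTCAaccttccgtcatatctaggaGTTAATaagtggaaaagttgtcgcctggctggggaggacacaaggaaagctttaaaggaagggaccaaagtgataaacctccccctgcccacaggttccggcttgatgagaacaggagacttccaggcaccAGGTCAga

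By the first start site listed for each gene, GTTAAT was found in 1 of the 8 member promoters, that of Apoc2, and in 7.20% of 27025 mouse windows of the same length. AGGTCA was also found in that of Apoc2 alone of the 8, and in 16.0% of all windows. TATAAA was found in those of Apoa2, Apob and Apoa5 and in 14.2% of all, and CAAAGTCCA in none of the 8 and in 0.477% of all. A match is a string of letters and was not tested for binding. Only exact letters were searched, so a promoter without a match may still hold a site.

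Apoa1 and Apoa2, the scaffolds of HDL, did not pass. Apoa1 ran from 14.39 over a median of 14.86 to 14.97 on the normalized log2 scale in conventional livers, and from 14.68 over 14.88 to 14.97 in germfree livers. The groups overlapped throughout, with a log2 change of 0.05 ± 0.05 (SE, 95% interval -0.06 to 0.15; limma, adjusted p = 0.706). The 2 Apoa2 probes had log2 changes of 0.02 (95% interval -0.10 to 0.13) and 0.03 (95% interval -0.08 to 0.15). Conventional livers spanned 14.63 to 15.08 by the first and 14.53 to 15.08 by the second, and germfree livers 14.65 to 15.08 and 14.59 to 15.08.

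Apob, the single structural protein of VLDL and LDL, did not pass either. It ran from 10.73 over 11.48 to 11.82 in conventional and from 11.11 over 11.56 to 11.97 in germfree livers on the normalized log2 scale. Its log2 change was 0.13 ± 0.10 (SE, 95% interval -0.07 to 0.33; limma, adjusted p = 0.566), so a rise of up to 1.25-fold lay within the interval. Of the germfree livers 4 were above the highest conventional liver, and 2 conventional livers were below the lowest germfree one.

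Apoe, the ligand by which remnant particles bind hepatic receptors, is also made by macrophages. It ran from 14.06 over 14.21 to 14.42 in conventional and from 14.02 over 14.11 to 14.39 in germfree livers, with a log2 change of -0.07 ± 0.05 (SE, 95% interval -0.18 to 0.03; limma, adjusted p = 0.50). Of 8 tested Kupffer cell and macrophage markers, 2 fell, Clec4f (-0.48 ± 0.10) and C1qa (-0.41 ± 0.09), and 6 did not pass. The median log2 change of the 8 was -0.40, and 2.59% of all 7839 named genes were lower. The summed linear level of these 8 markers ran from 744 to 1494 in conventional and from 607 to 1113 in germfree livers, and the Cd5l probe was detected in no liver. Their part in the Apoe values was not tested.

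Among the proteins that steer triglyceride removal, none passed. Apoc2, the activator of lipoprotein lipase, ran from 8.11 over 8.69 to 8.90 in conventional and from 8.20 over 8.68 to 9.08 in germfree livers. Its log2 change was 0.09 ± 0.09 (SE, 95% interval -0.10 to 0.28; limma, adjusted p = 0.677). Apoc3, which restrains the lipase and particle uptake, ran from 14.50 to 14.86 and from 14.39 to 14.86, with a log2 change of -0.02 ± 0.05 (SE, 95% interval -0.13 to 0.09; limma, adjusted p = 0.908). The highest normalized value of Apoc3 was the same in both groups because quantile normalization gives a rank the same value on every array. The raw signals behind it were 21216 units in conventional liver 13 and 35244 units in germfree liver 7.

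Apoc1, which slows hepatic uptake of remnants, gave probe changes of 0.00 and -0.08 on the log2 scale, with 95% intervals of -0.13 to 0.14 and -0.22 to 0.07. Its probes spanned 14.39 to 15.03 and 14.35 to 15.03 in conventional livers, and 14.50 to 15.03 and 14.35 to 15.03 in germfree livers. Apoa5, which promotes lipolysis, ran from 9.69 over 10.01 to 10.36 and from 9.47 over 9.86 to 10.46. Its log2 change was -0.07 ± 0.09 (SE, 95% interval -0.25 to 0.11; limma, adjusted p = 0.760). The highest and the lowest of the 30 normalized Apoa5 values were both germfree.

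Apoa4 varied most. This protein rides on chylomicrons and HDL, and its level in mouse liver is known to rise when triglyceride accumulates. Its normalized log2 intensity ran from 8.08 over 9.21 to 9.94 in conventional and from 7.12 over 8.85 to 10.46 in germfree livers, a 10.1-fold range over the 30 livers. The SD was 0.52 in conventional (n = 16) and 1.02 in germfree livers (n = 14). After normalization the highest and the lowest liver of all were both germfree. The log2 change of -0.47 ± 0.27 (SE) did not pass (95% interval -1.01 to 0.07; limma, adjusted p = 0.373). On the linear scale the interval ran from 0.498-fold to 1.05-fold, so the data leave the size of any Apoa4 difference wide. Of the intestinal epithelium markers, the probes for Fabp2, Alpi and Cdh17 were detected in no liver and that for Rbp2 in 2 germfree livers. Vil1 (log2 change 0.06) and Cdx2 (0.01) were measured and did not pass. Undetected probes do not show that intestinal RNA was absent.

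**Figure D2:**
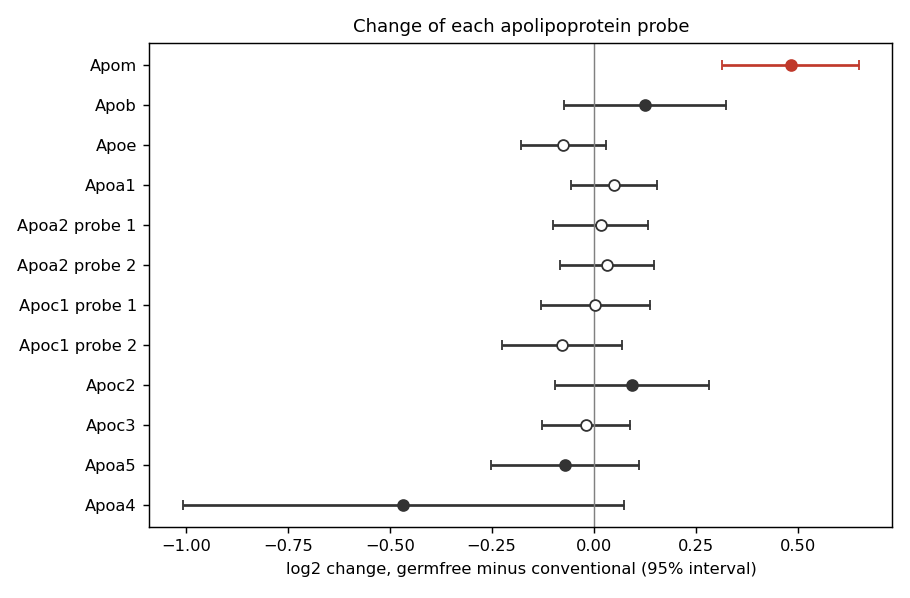
Log2 change, germfree minus conventional, of each apolipoprotein probe with its 95% interval from the limma fit over 16 and 14 livers. Red marks the probe past an adjusted p of 0.05, and open circles mark the 7 probes whose median raw signal was at least 50% of the brightest probe of the array. The interval of Apom runs from 0.32 to 0.65 and all other intervals include 0.

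Over the 12 probes the median log2 change was 0.01, against 0.00 over all probes tested. The ratio of Apom to Apob, Apoe, Apoc1, Apoc2, Apoc3, Apoa5 and Apoa4 in the same liver was higher in germfree mice. The smallest difference was against Apob (log2 ratio change 0.36, 95% interval 0.08 to 0.63) and the largest against Apoa4 (0.95, 95% interval 0.31 to 1.59). Ratios to Apoa1 and Apoa2, whose probes lay near the top of the signal range, are not given, and those to Apoc1 and Apoc3 come close to the same limit. Apom was picked for its change, so these ratios carry no test.

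Whether more hepatocytes or more Apom RNA per hepatocyte lay behind a higher level cannot be told apart in bulk liver. Of 7 tested hepatocyte markers, 2 rose, Ahsg (0.27 ± 0.06) and Asgr2 (0.32 ± 0.07), none fell and 5 did not pass. The median log2 change of the 7 was 0.13, and 3.66% of all 7839 named genes were higher. The summed linear level of the 7 ran from 104100 to 122200 in conventional and from 115200 to 126500 in germfree livers. Its part in the Apom change was not tested. Mean normalized log2 intensity was 14.79 and 14.73 for Hpx and 14.56 and 14.57 for Ttr in conventional and germfree livers. For Trf it was 14.27 and 14.50. Such bright probes weigh most in the sum, and near the top of the signal range their differences can be compressed. Kidney is the other main site of Apom expression. The probes for its markers Slc34a1, Kap, Slc22a6, Slc22a8 and Umod were detected in no liver. Slc22a12 was detected in 1 conventional liver by 1 of its 2 probes. As the probes for Alb and Fgb were also mostly undetected, this does not show that kidney RNA was absent.

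Bright probes lay close to the top of the signal range, where differences can be compressed. The brightest probe of an array read 14290 to 54031 units, and near saturation was taken as a raw signal of at least 80% of it on at least 15 arrays. By that rule 3 member probes were near saturation: both of Apoa2 (30 and 24 arrays) and that of Apoa1 (24 arrays). Apoc1 reached 80% on 12 and 11 arrays by its 2 probes and Apoc3 on 11, just outside the rule, and Apoe never did, with a median of 54.9%. Apom stood at a median of 17.4% (range 10.9% to 28%), Apob at 8.40%, Apoa5 at 2.96%, Apoa4 at 1.65% and Apoc2 at 1.31%.

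The first Apoa2 probe was the member that followed array brightness least. Its log2 signal moved by 0.79 for each log2 unit of mean array signal, against a median of 1.12 (quartiles 1.04 and 1.21) for 802 probes with a median signal of 1000 to 10000. Apoa1 and the second Apoa2 probe had slopes of 0.92 and 0.97, the Apoc1 probes 1.03 and 1.01, and Apom 1.11. Quantile normalization also gives the top ranks nearly fixed values. Apoa1 ranked 4 to 24 on the arrays, the Apoa2 probes 1 to 20, the Apoc1 probes 2 to 25 and Apoc3 8 to 24. Equal highest values in both groups for these probes come from this step. At such ranks the normalized values lie between about 14.35, the value at rank 25, and 15.08, the maximum. A rise of these probes could not show above that maximum, while a fall below rank 25 would not be bounded by this step.

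**Figure D3:**
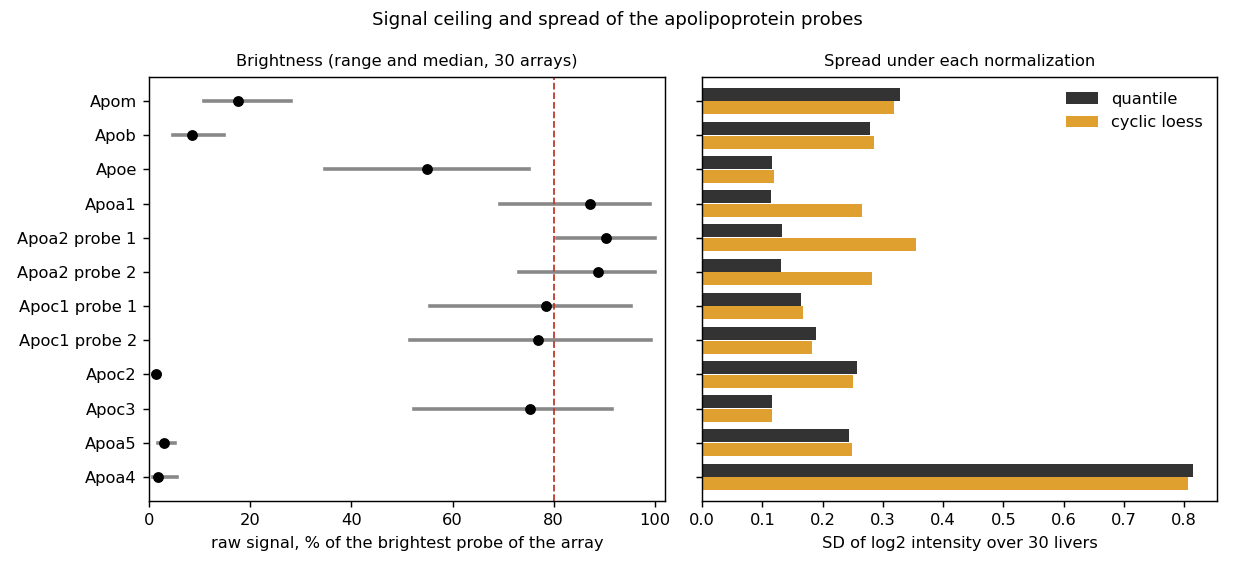
Left, raw signal of each apolipoprotein probe as a percent of the brightest probe of its array (line, range over 30 arrays; dot, median; dashed line, 80%). Right, SD of log2 intensity over the 30 livers after quantile (black) and cyclic loess (orange) normalization; the SD of Apoa1 was 0.114 and 0.266, and that of Apom 0.328 and 0.319.

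With cyclic loess, which does not fix the top ranks, the spread over the 30 livers rose from 0.114 to 0.266 for Apoa1. For the Apoa2 probes it rose from 0.133 to 0.355 and from 0.131 to 0.282. It changed little for Apoc3 (0.116 to 0.115) and the Apoc1 probes (0.163 to 0.168 and 0.189 to 0.181), which were of like rank. It also changed little for Apoe (0.116 to 0.119). The log2 changes of Apoa1 and the 2 Apoa2 probes were then 0.05 ± 0.10, -0.01 ± 0.13 and 0.04 ± 0.10 (SE). None of these passed (limma, adjusted p = 0.858, 0.979 and 0.89). Apom kept a change of 0.48 ± 0.08 (limma, adjusted p = 9.71e-05). The 2 probes of Apoa2 deviated from their group means almost independently after quantile normalization (r = 0.15, permutation p = 0.447; rho = 0.20, permutation p = 0.301; r = 0.09 without the 2 livers farthest from the median). Those of Apoc1 moved together (r = 0.64, permutation p = 0.00014; rho = 0.61, permutation p = 0.00041; r = 0.63 without the 2). Adjusted over these 2 relations the p-values for r were 0.447 and 0.00028.

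Covariation between the 10 genes was read from each liver's deviation from its group mean, so that the group difference did not enter. None of 45 pairs passed an adjusted p of 0.05 in the permutation test after quantile normalization, and 8 had an unadjusted p under 0.05. The strongest pair was Apoe and Apoc1, neighbours on chromosome 7. Their r was 0.55 (permutation p = 0.00132, adjusted p = 0.0594) and rho 0.52 (permutation p = 0.00395, adjusted p = 0.0889). Within groups r was 0.37 in conventional and 0.815 in germfree livers, and 0.43 without the 2 livers farthest from the median of Apoe.

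The pattern between genes turned on the normalization. Under cyclic loess 7 of the 45 pairs passed, all of them among Apoa1, Apoa2, Apoc1, Apoc3 and Apom. The pair of Apoa1 and Apoa2 then had r = 0.92 (permutation test, adjusted p = 0.00015) against r = 0.37 (permutation p = 0.0501, adjusted p = 0.25; rho = 0.36) after quantile normalization. Scaling to the median over probes detected on all arrays gave 18 pairs, and scaling to the median of all probes gave 44. How much of the shared movement came from array brightness was not tested.

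**Figure D4:**
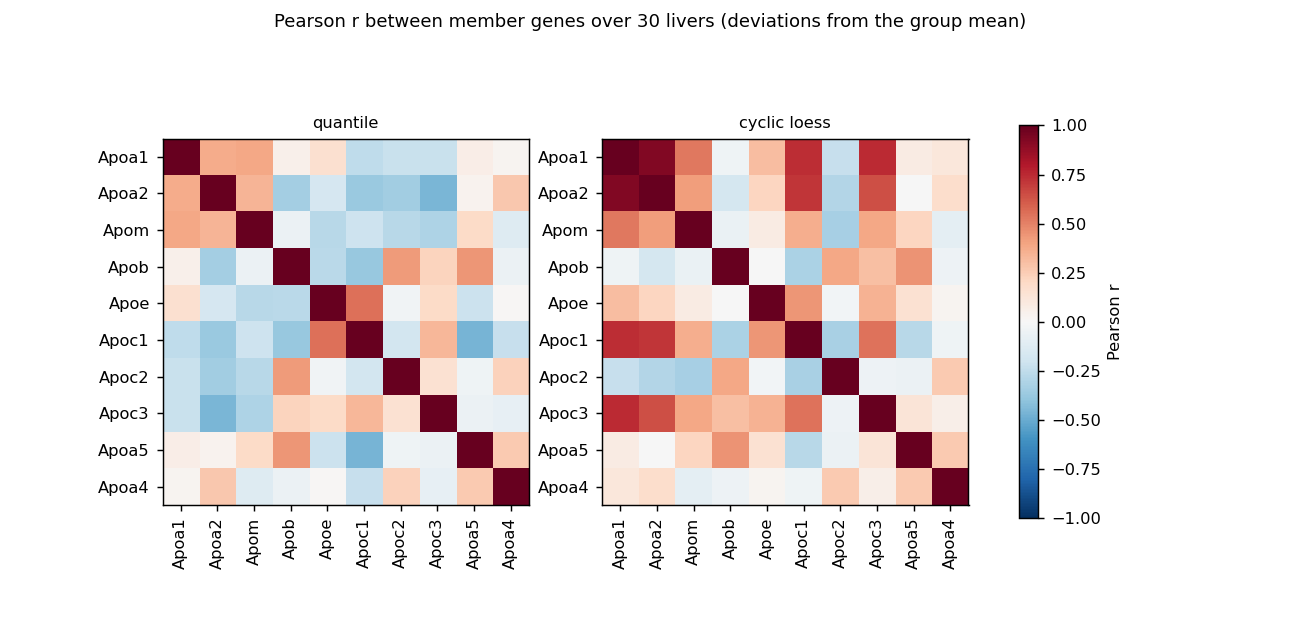
Pearson r between the 10 genes over 30 livers, from deviations from the group mean, after quantile (left) and cyclic loess (right) normalization; red is positive and blue negative. None of 45 pairs passed on the left and 7 passed on the right, with r = 0.92 for Apoa1 and Apoa2.

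The genes whose deviations were most like those of Apom over the 30 livers were Lmna (r = 0.78), Cerk (r = 0.74), Mark2 (r = 0.74), Eif3d (r = 0.73) and Serpina11 (r = 0.73), out of 7838 named genes. The value reached by 1 gene in 100 was 0.60, and all points share their arrays, so these are a description. None of the 5 passed the test between the groups (log2 changes from -0.28 to 0.15; limma, adjusted p from 0.105 to 0.914). The list was the same without background correction and in the authors' normalized values, kept 3 of 5 under cyclic loess and kept none under either median scaling. Among the top 50 genes were all 5 under cyclic loess, 2 under median scaling and 3 under scaling over probes detected on all arrays.

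Among 82 further genes that make, remodel, take up or regulate lipoproteins or handle sphingosine 1-phosphate, 7 rose, 4 fell and 71 did not pass. That is 13.4%, against 6.25% of all 7839 named genes (3.66% higher and 2.59% lower), and the median log2 change was 0.02 against 0.00. The lists were chosen with earlier results of these data known, so this share is a description and no test of enrichment. Of 17 genes of assembly and secretion 2 rose and none fell (median 0.01). They were Apobec1, the deaminase that edits Apob mRNA (0.48 ± 0.12; limma, adjusted p = 0.0159), and Sort1, a sorting receptor that binds apolipoprotein B (0.37 ± 0.10; limma, adjusted p = 0.0243). Both probes were dim, and without background correction the log2 changes were 0.25 and 0.20, still past the threshold. Of 13 plasma lipases and remodelling genes 1 rose, Gpld1, a phospholipase D carried on HDL (0.39 ± 0.09; limma, adjusted p = 0.00732), with 0.35 by its other probe, and the list's median was 0.09.

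Of 7 tested lipoprotein receptor genes 1 rose (median -0.08), the sinusoidal scavenger receptor Stab2 (0.47 ± 0.11; limma, adjusted p = 0.00512). The HDL receptor Scarb1, named after its values were seen, had a log2 change of 0.21 ± 0.09 by its brighter probe, which did not pass, and rose by 0.51 ± 0.10 by its dimmer one (limma, adjusted p = 0.183 and 0.000847). Of the 16 dimmer probes of pathway genes, those of Scarb1 and Gpld1 were the 2 that passed. None of 9 other apolipoprotein and related genes passed (median -0.07), and none of them had an unadjusted p under 0.05 except Naxe (limma p = 0.00775), an epimerase that binds apolipoprotein A-I. Naxe had a log2 change of -0.25 ± 0.09 (limma, adjusted p = 0.0942) and the next, the interferon-inducible Apol9b, 0.24 ± 0.14 (limma, adjusted p = 0.381).

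Of 24 transcriptional regulators 2 rose and 3 fell (median 0.02). In log2 terms the coactivator Ppargc1a rose by 0.71 ± 0.18 and the orphan receptor Rora by 0.28 ± 0.09 (limma, adjusted p = 0.0137 and 0.0436). Ppargc1a was detected in 14 of the 16 conventional livers, and its change was 0.37 without background correction and 0.46 in the authors' normalized values, past the threshold in both. When each liver was left out in turn, Rora no longer passed in 17 of 30 cases. The nuclear receptor Pparg fell (-1.17 ± 0.16), as did the corepressor Prox1 (-0.53 ± 0.11) and the bile acid receptor Nr1h4 (-0.33 ± 0.06; limma, adjusted p = 1.06e-05, 0.00244 and 0.000467). The Pparg probe fell below detection in some germfree livers (12 of 14 detected), and its log2 change was -0.62 without background correction and -0.77 in the authors' normalized values.

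Of 12 tested genes of sphingosine 1-phosphate handling, the lipid that apolipoprotein M carries, 1 rose and 1 fell (median 0.05). The receptor S1pr2 fell (-0.61 ± 0.12; limma, adjusted p = 0.000993), with -0.39 without background correction. Acid ceramidase, Asah1, which releases sphingosine, rose by 0.26 ± 0.07 log2 units by its brighter probe (limma, adjusted p = 0.0273), and the dimmer one, detected in 5 conventional and 6 germfree livers, gave 0.05. The probes for Sphk1, Spns2, Mfsd2b, Plpp2, S1pr1 and S1pr3 did not pass the detection filter. With arrays scaled to the median of all probes, Pparg alone of the 11 genes passed. With the median over probes detected on all arrays, 10 passed.

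**Figure D5:**
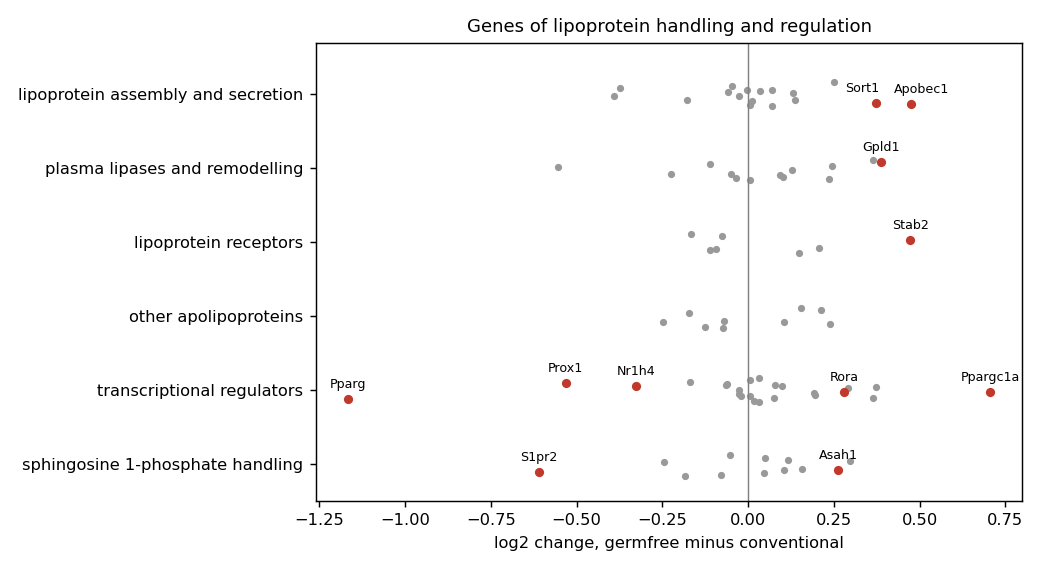
Log2 change, germfree minus conventional, of the genes tested in 6 lists of lipoprotein handling, regulation and sphingosine 1-phosphate, 1 point a gene by its brightest probe. Red and labelled are the 11 genes past an adjusted p of 0.05 in limma, from Pparg at -1.17 to Ppargc1a at 0.71; grey genes did not pass, and vertical scatter within a list has no meaning.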

How the data were processed

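Total RNA was labelled as biotin cRNA, per the labels' protocols. The deposited signal table held mean bead intensity per probe, not normalized, per the file headers, made with GenomeStudio per the submitters' processing notes. Per the file headers it also held a detection p-value per probe and array. The authors' deposited value table held quantile-normalized intensity and was used as an alternative. The 33 arrays without a sample in the labels were not used.

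Signals were corrected with normexp (offset 16), quantile normalized and log2 transformed (neqc, limma 3.58.1, R 4.3.3). Symbols came from the platform annotation (20984 of 24613 probes with 1 symbol), and 3628 probes are unnamed here. Tests were two-sided (lmFit, eBayes), and p-values were adjusted by Benjamini and Hochberg's method across the 10525 kept probes, with a threshold of 0.05; a pathway gene is given by its brightest probe. The fit was tested on simulated data. Correlations used 100000 two-sided permutations within groups. Labels do not say whether animals shared cages or litters. The p-values set a group difference against the spread between livers taken as independent, which could not be checked. Figures used matplotlib 3.10.9.

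The genes and lists were chosen with earlier results of these data known, so the rise of Apom is no independent evidence. Named were all member probes, list genes past the threshold or else the 2 with the smallest adjusted p, and the 5 genes most correlated with Apom and with Apoa4. Alternatives were background correction, 5 normalizations, filters, probe summaries, array weights, a variance trend, a covariate, a replicate block, low-signal arrays, a stricter threshold and each array left out.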

Additional observations from a re-analysis of the deposited data

How the results depend on the processing

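The count of 1 apolipoprotein probe past the threshold, Apom, held under 15 of 16 alternatives and in all 30 fits that left out 1 liver, and the log2 change of Apom stayed positive in all of them. The exception was median scaling of the arrays, where the Apom change of 0.50 had an adjusted p of 0.183 in limma, 0 member probes and 68 probes in all passed, and 1 pathway gene passed; the cause was not tested, though the SE of Apom was 0.16 there against 0.08. At an adjusted p of 0.01, 267 probes passed in place of 603. Same-numbered livers did not pair (correlation of deviations from -0.17 to 0.39 over 14 pairs, and 2 germfree livers correlated best with their own number). With the replicate number as a block over 28 arrays the Apom change was 0.45 (limma, adjusted p = 0.00632), 488 probes and 7 pathway genes passed, against 476 and 10 over the same arrays without the block. Leaving out the 4 arrays of low signal, 3 of them germfree, gave Apom 0.51 (limma, adjusted p = 0.000977), 417 probes and 8 pathway genes. The first Apoa2 probe, at 0.02, turned to 0.00 (-0.00031 and -0.00055) under scaling over probes detected on all arrays and without the low-signal arrays and to -0.0096 under cyclic loess. The first Apoc1 probe, at 0.0039, turned to -0.037 as the mean of 2 probes, -0.0056 with array weights and -0.031 without the low-signal arrays. Leaving out 1 liver moved these probes from -0.00053 to 0.036 and from -0.020 to 0.025, and Apoc3 from -0.033 to 0.0031; none passed. The count of correlated pairs, 0, went to 44, 18 and 7 under median scaling, scaling over probes detected on all arrays and cyclic loess, alternatives chosen after seeing the data, as were those for the pathway genes. The dim probes of Sort1, Apobec1, Ppargc1a and Pparg had log2 changes over 1.5 times smaller without background correction (0.20, 0.25, 0.37 and -0.62) and in the authors' values (0.25, 0.31, 0.46 and -0.77), as had S1pr2 in the first (-0.39); Asah1 fell to 0.16 as the mean of its probes. Other named pathway genes lost in at least 2 of 15 alternatives were Sort1 (4), Apobec1 (2), Ppargc1a (2), Rora (6) and Asah1 (3).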

Other observations

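The genes that varied most like Apoa4 over the 30 livers, as deviations from the group mean, were Man2b2 (r = 0.61), a lysosomal mannosidase, Fads2 (r = 0.58), the desaturase of polyunsaturated fatty acids, Cdc42ep5 (r = 0.57), Elovl5 (r = 0.57), an elongase of the same fatty acids, and the fasting hormone Fgf21 (r = 0.56). Over 7838 named genes the value reached by 1 in 100 was 0.40, and all points share their arrays. Fads2 stood at r = 0.68 within conventional and 0.57 within germfree livers, Fgf21 at 0.55 and 0.63, and Elovl5 at 0.26 and 0.75. Of the 5, Fads2 rose in germfree liver (0.71 ± 0.14 on the log2 scale; limma, adjusted p = 0.00154), while the others had adjusted p from 0.0691 to 0.747 in limma. Each of the other 5 normalizations kept all 5 genes among the top 50, and 3 or 4 of them among the top 5.

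Germfree livers held both ends of the normalized Apoa4 range. Germfree liver 7 had the lowest normalized log2 intensity, 7.12, and germfree liver 3 the highest, 10.46. Before normalization these read 273 and 794 units, while conventional liver 6 read 149 units and conventional liver 12 read 1193. Both ends were thus germfree after normalization only. Without the 4 arrays of low signal the Apoa4 log2 change was -0.63 ± 0.26 (SE) and did not pass (limma, adjusted p = 0.188).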
